A study of Mus musculus with 24 samples.

Results

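The question asked here is whether the genes of the hippocampus respond to object learning differently in mice that lack FoxO6. For each gene the response of the FoxO6 -/- mutants (After Learning minus Basal) was set against the same response of the FoxO6 +/+ wild types (WT), and the difference of the 2 responses was tested. A positive difference means that the mutant response lay above the WT response. The comparison takes all 24 arrays of the series, 6 in each of 4 groups, and covers 19938 genes: each is read by its brightest probe, chosen from the 21789 of 35511 probes that carry 1 gene symbol. Every gene measured is a member.

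All 4 groups were male mice 8 to 9 weeks old of a mixed C57BL/6J-129sv background, and the mutants were labelled FoxO6 null. The labels do not say how the null allele was made. Basal mice of both genotypes had lived alone in their cage for at least 3 days and did no task. The mice of the learning groups were handled every day and spent 10 min in the empty arena 24 h before the task. They then explored a pair of identical new objects for 10 min, and the finely dissected hippocampus was taken 60 min later. The response therefore holds housing, daily handling, the move to the procedure room and the arena as well as the objects, and these cannot be told apart in any of the groups. The arrays of a group are labelled as biological replicates, but whether each is 1 animal is not stated. The p-values rest on the spread between these arrays.

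The forkhead proteins of the FoxO family are transcription factors controlled by insulin and growth factor signalling. FoxO6 is expressed strongly in the hippocampus and is known for a part in memory consolidation. Exploring new objects drives neurons to switch on immediate early genes within minutes, first transcription factors such as Fos and Egr1 and then effectors that reach the synapse, such as Arc and Bdnf. Feedback inhibitors of the MAP kinase cascade, among them the Sprouty proteins and dual-specificity phosphatases, limit the signal that starts this programme.

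The values are log2 levels, on which a difference of 1 is a 2-fold change. Array medians lay between 6.16 and 6.30, and arrays of the same group correlated with each other at 0.991 to 0.997 over all genes. Foxo6 itself read 6.78, 7.04 and 7.30 (lowest, median and highest of 6) in WT basal and 6.62, 6.90 and 7.04 in WT learning arrays. In the mutants it read 6.18, 6.26 and 6.59 at basal and 5.98, 6.28 and 6.38 after learning, so that every mutant array was below every WT array. Markers of the tissue were present in every array: the mean level of the 15 dentate granule cell markers measured was 8.04 to 8.34, of the 9 CA1 markers 8.78 to 9.01 and of the 14 CA2 and CA3 markers 8.27 to 8.47. Transthyretin (Ttr), the transport protein made by the choroid plexus, fell into unlike sets of arrays within WT basal. It read 11.65 to 12.11 in arrays 1 to 3 and 8.80 to 9.64 in arrays 4 to 6. Ttr also spread widely in mutant learning arrays, from 8.59 to 11.65. It ran from 8.46 to 10.20 in WT learning and from 11.01 to 11.99 in mutant basal arrays. The count of genes with an unadjusted p under 0.05, Imp3, Ttr and the choroid plexus markers are given below with and without WT basal arrays 4 to 6. Other genes and lists are given with all arrays, and some of them depend on these 3. Without them the unadjusted p of Ces3a, for example, went from 0.0057 to 0.0424 by limma. Leaving these 3 out does not remove the spread of Ttr in the other groups. In whole hippocampus a lower level can mean fewer cells of a type or less RNA per cell, and these cannot be told apart.

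The learning response was large in both genotypes and correlated closely between them. In WT mice 8636 genes, 43.3% of those tested, passed an adjusted p of 0.05 (limma, Benjamini-Hochberg over all genes), and in mutants 8231 genes, 41.3%, did. Both calls ran the same way in 6910 genes, 3785 rising (19% of all genes) and 3125 falling (15.7%), which is 80% of the WT calls and 84% of the mutant calls. No gene was called for the difference of responses: 0 of 19938, or 0%, with the smallest adjusted p at 1. A further 1723 genes were called in WT alone and 1318 in mutants alone, yet 0 of these passed the test of the difference, and 94.8% and 96.1% of them had the same sign in the other genotype. The 3 genes called in opposite directions, 4930506C21Rik, 8430432A02Rik and BC051665, were named after their values were seen, and none passed the test of the difference.

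**Figure D1:**
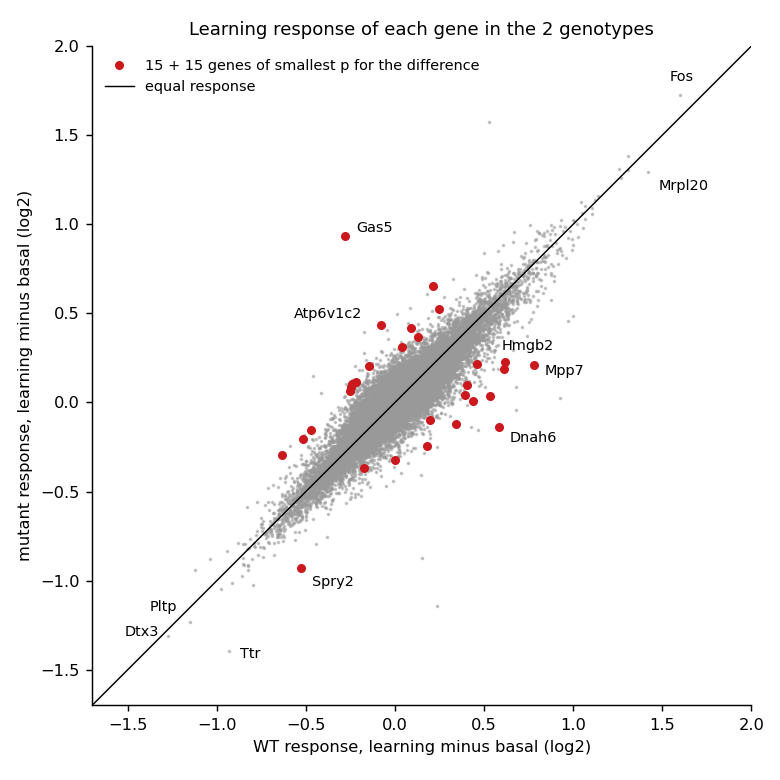
Each grey point is 1 of 19938 genes, with its learning response (learning minus basal, log2) in WT mice on the x axis and in mutants on the y axis, and the line marks equal responses. The 30 red genes have the smallest p for the difference, 15 in each direction, with clone names, pseudogenes and the like skipped. Most other genes follow the line from Dtx3 and Pltp to Fos.

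Across the 19938 genes the SD of the response was 0.25 in WT mice and 0.247 in mutants, whereas the SD of the difference was 0.099. A WT response beyond 0.5 was measured in 1155 genes and a mutant response of that size in 1110, but a difference of that size in 17. Beyond 1 the numbers were 23, 26 and 4. Those 4 were Gas5, the olfactory receptor Olfr767, the pseudogene Gpr137b-ps and the deubiquitinase copy Usp17ld, and all but Gas5 were named after their values were seen. The 2 sets of responses rest on separate arrays and correlated over genes at a Pearson r of 0.921 and a Spearman rho of 0.885, a description over genes, which are not independent replicates. In all, 98.1% of the differences lay within 0.25 of 0. The median difference was -0.01, and 45.5% of genes were positive.

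The precision of these arrays sets what could have been seen. The standard error of a difference had a median of 0.102. At that error a single gene would have had to differ by 0.592 to be called among 19938, by 0.331 at the 5th percentile of the error and by 0.901 at the 95th. Of the genes, 510 had an unadjusted p under 0.05, or 2.56%, against a nominal 5%. They split into 180 genes (0.903%) with a mutant response above that of WT mice and 330 genes (1.66%) with one below, or 138 and 399 with each array centred on its median. P-values under 0.1 were held by 6.29% of genes and those over 0.9 by 10.9%. Leaving out mutant basal array 6 raised the 180 to 296 genes, leaving out mutant learning array 5 raised it to 274, and leaving out the 3 WT basal arrays of low Ttr raised the 510 to 919, of which 326 were above and 593 below. No gene was called in any of these settings.

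**Figure D2:**
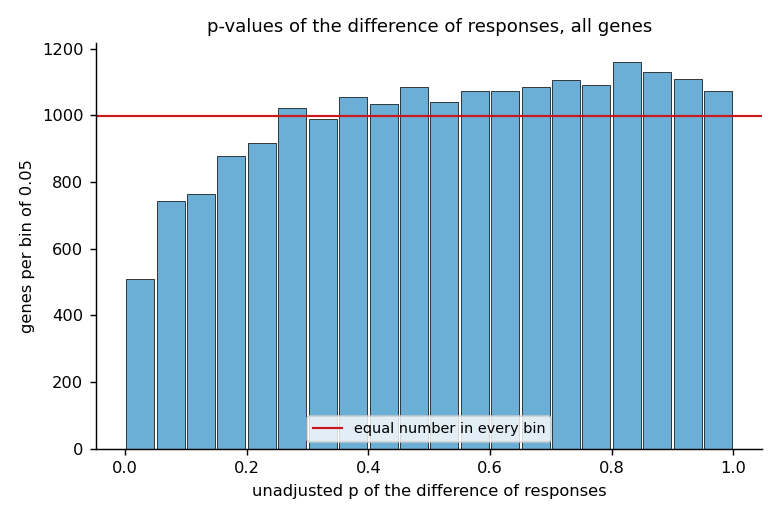
Number of genes in each bin of 0.05 of the unadjusted p (x axis) for the difference of responses, over 19938 genes. The first bin holds 510 genes, below the red line that marks an equal number in every bin.

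The genes that responded most were chosen by the response averaged over genotypes, a contrast that is independent of the difference in this balanced design. It was called in 10927 genes, 54.8% of those tested. Fos, the immediate early transcription factor with the largest rise, read 6.00, 6.61 and 6.66 in WT basal and 7.83, 8.07 and 8.42 in WT learning arrays. In mutants it read 6.17, 6.47 and 6.63 at basal and 8.05, 8.12 and 8.36 after learning. The learning arrays were all above the basal arrays in each genotype. The rise was 3.03-fold in WT mice and 3.31-fold in mutants, and the difference was 0.12 log2 units with a 95% interval of -0.18 to 0.43.

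Hint1, which encodes a histidine triad nucleotide-binding protein, was measured more tightly. It read 8.92, 9.22 and 9.31 in WT basal and 10.22, 10.32 and 10.41 in WT learning arrays, and 9.05, 9.23 and 9.28 against 10.26, 10.34 and 10.42 in mutants. It rose 2.18-fold in WT mice and 2.20-fold in mutants, and the interval of the difference ran from -0.13 to 0.16. Mpc1, a subunit of the mitochondrial pyruvate carrier, rose by 1.04 and 1.13 with an interval of -0.08 to 0.25. Sdhaf4, an assembly factor of succinate dehydrogenase, rose by 1.31 and 1.38 with an interval of -0.16 to 0.32. Trim13, a ubiquitin ligase of the endoplasmic reticulum, rose by 1.31 in both genotypes, with an interval of -0.23 to 0.23. Imp3, a part of the machinery that matures ribosomal RNA, rose by 1.26 and 1.31. Without the 3 WT basal arrays of low Ttr its difference went from 0.05 to 0.24. Polr3e, a subunit of RNA polymerase III, rose by 1.27 and 1.26, and the X-linked Bex1 and Bex4 rose by 1.14 and 1.16 and by 1.06 and 1.10. Mrpl20, a mitochondrial ribosomal protein, was the least certain of the 12 largest risers. It read 6.42, 7.20 and 7.90 in WT basal and 6.46, 7.69 and 8.40 in mutant basal arrays, and the interval of its difference ran from -0.87 to 0.61.

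Dtx3, a ubiquitin ligase of the Deltex family, read 9.73, 9.99 and 10.05 in WT basal and 8.56, 8.65 and 8.72 in WT learning arrays, and 9.81, 9.90 and 10.09 against 8.48, 8.59 and 8.72 in mutants. It fell to 0.413 of its basal level in WT mice and to 0.404 in mutants, with an interval of the log2 difference from -0.20 to 0.13. Pltp, the phospholipid transfer protein, fell by 1.15 and 1.23, and Selenow, a small selenoprotein, by 0.97 and 1.05. Among synaptic genes, Shank1, a scaffold of the postsynaptic density, fell by 0.83 in WT mice and 0.92 in mutants, and Slitrk1, a synaptic adhesion protein, by 0.86 and 0.98. Tmem88b had the widest gap of the 12 largest fallers apart from Ttr: it fell by 0.80 and 1.02, and its interval, -0.47 to 0.02, reached 0. The choroid gene Ttr fell by 1.39 in mutants (adjusted p = 0.018) and responded by -0.93 in WT mice, which was not called (adjusted p = 0.11). Its difference of -0.46 had an interval of -1.83 to 0.90, and without the 3 WT basal arrays of low Ttr it was 0.86.

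Over all genes called in the average response, 6324 risers had a median response of 0.25 in WT mice and 0.23 in mutants, and 4603 fallers had medians of -0.25 and -0.26. The median difference was -0.02 for risers and -0.01 for fallers, beside -0.01 over all genes, so neither set stood far from the rest. Among the risers 42 had an unadjusted p under 0.05 above the WT response and 120 below, and among the fallers 42 and 84. Over all genes these shares were 0.903% above and 1.66% below. In the strongest class, with an average response of 1 or more, 19 risers had median responses of 1.10 and 1.13 and 5 fallers had -1.12 and -1.23. Of these 19 risers 1 had an unadjusted p under 0.05, above the WT response, and of the 5 fallers 0 did, beside 2.56% of all genes. For 17 of the 19 and 3 of the 5, the whole interval of the difference lay within 0.5 times the average response. For weaker responders the arrays seldom bound the difference that tightly: 12.8% of all risers and 19% of all fallers met that bound. The mean level of the 19 risers was 7.39, 7.58 and 7.65 in WT basal, 8.58, 8.70 and 8.72 in WT learning, 7.48, 7.56 and 7.62 in mutant basal and 8.65, 8.74 and 8.85 in mutant learning arrays.

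**Figure D3:**
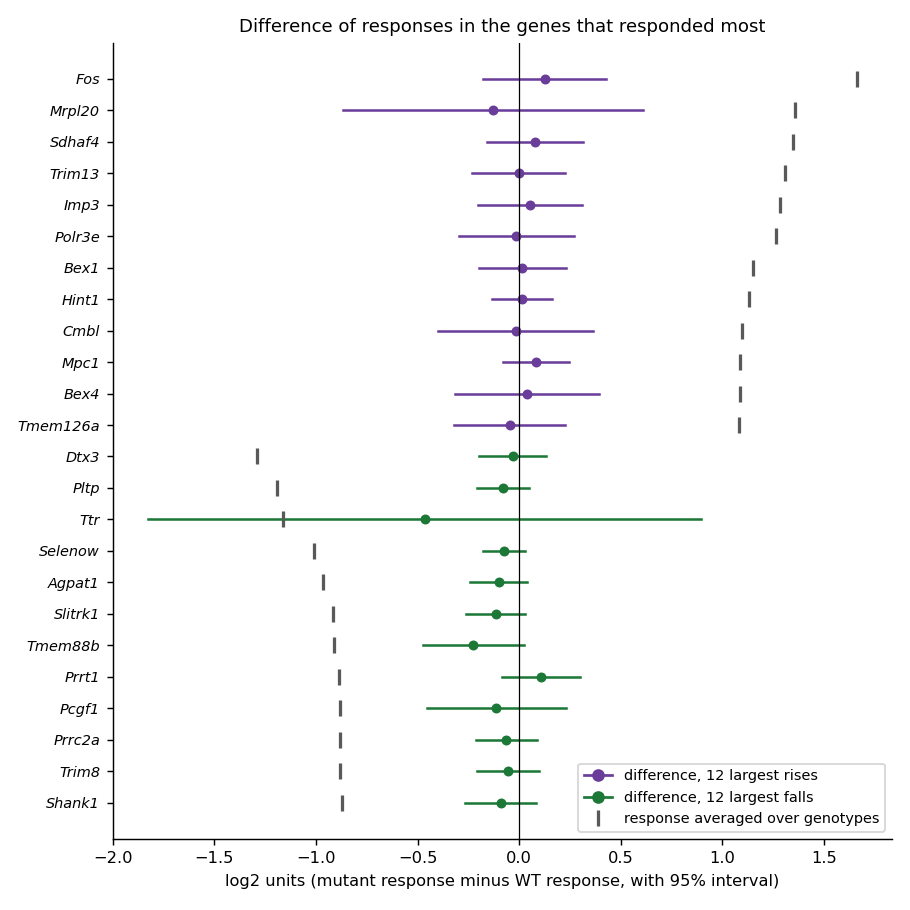
For the 12 genes with the largest rise (purple) and the 12 with the largest fall (green), points show the mutant response minus the WT response with its 95% interval, and grey ticks show the response averaged over genotypes, all in log2 units. All 24 intervals include 0; that of Ttr is the widest, from -1.83 to 0.90.

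Although none was called, the genes with the smallest p-values are described here by their arrays, 15 in each direction. Clone names, receptors of smell and taste, pseudogenes and the like were skipped in choosing them, some with smaller p-values. Their unadjusted p-values run from 5.03e-05 upward and every adjusted p is 1. Spry2 came first. It encodes Sprouty2, a feedback inhibitor of receptor tyrosine kinase signalling to MAP kinase. It read 9.73, 9.92 and 10.01 in WT basal and 9.24, 9.39 and 9.45 in WT learning arrays. In mutants it read 9.98, 10.18 and 10.23 at basal and 9.02, 9.22 and 9.35 after learning. It fell in both genotypes with no overlap of basal and learning arrays, by 0.53 in WT mice and by 0.93 in mutants. The mutant median was above the WT median at basal and below it after learning, and the difference was -0.40 (SE 0.084, interval -0.57 to -0.23, unadjusted p = 5.03e-05, adjusted p = 1 by limma).

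After Spry2 came Chek1 and Hmgb2. Chek1, the checkpoint kinase that stops the cell cycle when DNA replication stalls, read 5.09, 5.18 and 5.36 in WT basal and 5.56, 5.60 and 5.87 in WT learning arrays. In mutants it read 5.23, 5.37 and 5.52 and then 5.20, 5.36 and 5.59. It rose by 0.44 in WT mice and changed by 0.01 in mutants, a difference of -0.43 (interval -0.64 to -0.22). Hmgb2, a chromatin protein of dividing cells, read 6.46, 6.58 and 6.69 in WT basal and 7.01, 7.17 and 7.46 in WT learning arrays, and 6.51, 6.57 and 6.73 against 6.64, 6.84 and 6.98 in mutants. It rose in both genotypes, by 0.62 and 0.23, and the basal and learning arrays overlapped in mutants only. All 4 of its probes gave a negative difference, from -0.39 for the probe used to -0.13. Rrm2, the small subunit of ribonucleotide reductase, rose by 0.34 in WT mice and moved by -0.12 in mutants, which was not called. Its difference was -0.47 (interval -0.73 to -0.21). Among the 22 measured genes of the list of dividing cells and new neurons 9 differences were positive and 13 negative, and the median was -0.02. Hmgb2 alone of that list had an unadjusted p under 0.05, beside 2.56% of all genes. Chek1 and Rrm2 are not on the list, and both had an unadjusted p under 0.05 by limma.

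Most of the genes in this direction were called as rising in WT mice and not called in mutants. That held for 9 of the 15, among them Chek1, Gjd2, Cldn12, Mpp7, Dnah6, Kbtbd3 and Anxa4. Of all 19938 genes, 1723 were called in WT alone, rising or falling. The 15 were picked by the p of the difference, so this count is a description. Gjd2 encodes connexin 36, which forms the electrical synapses between interneurons. It read 6.56, 6.70 and 6.85 in WT basal, 7.05, 7.08 and 7.17 in WT learning, 6.67, 6.79 and 6.89 in mutant basal and 6.66, 6.81 and 7.07 in mutant learning arrays. The WT groups did not overlap, the mutant groups did, and the difference was -0.35 (interval -0.54 to -0.16). The tight junction gene Cldn12 rose by 0.40 in WT mice against 0.10 in mutants, and the scaffold gene Mpp7 by 0.78 against 0.21. A second probe of Mpp7 gave a difference of -0.25, beside -0.57 for the probe used. Dnah6, a dynein heavy chain of motile cilia, differed by -0.72 and had 3 probes, all negative, the weakest at -0.34. Myo1e, an unconventional myosin, took another form: it read 7.36, 7.47 and 7.49 in WT basal and 7.31, 7.46 and 7.54 in WT learning arrays. In mutants it went from 7.37, 7.51 and 7.63 to 6.94, 7.24 and 7.28, and it fell by 0.32 in mutants alone.

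In the other direction Atp6v1c2, a subunit of the vacuolar proton pump, had the smallest p of the 15 genes chosen. It read 5.65, 5.84 and 6.21 in WT basal and 5.58, 5.84 and 6.00 in WT learning arrays, 5.57, 5.67 and 5.85 in mutant basal and 5.86, 6.20 and 6.30 in mutant learning arrays. It rose by 0.43 in mutants with no overlap and changed by -0.08 in WT mice, which was not called. The difference was 0.51 (interval 0.25 to 0.77). Of the 15 genes, 7 were called as rising in mutants and not called in WT mice: Atp6v1c2, Gas5, Ptpn20, Ces3a, Dguok, Ss18 and Cdon. Dguok, the mitochondrial deoxyguanosine kinase, rose by 0.65 in mutants against 0.21 in WT mice. A further 5 were called as falling in WT mice and not called in mutants: Mycl, Sry, Slc6a20b, Mbd6 and Nfe2. Of all 19938 genes, 1318 were called in mutants alone and 1723 in WT alone, rising or falling. These 15 too were picked by the p of the difference. Mycl, the L-Myc transcription factor, read 7.52, 7.64 and 7.80 in WT basal and 7.33, 7.40 and 7.50 in WT learning arrays, and 7.27, 7.58 and 7.74 against 7.58, 7.61 and 7.68 in mutants. Mycl and Crocc lie on chromosome 4, as Foxo6 does, and Mycl lies within 20 Mb of it. Cd83, an immune surface protein, rose in both genotypes, by 0.25 and 0.52, while Crocc, a protein of the ciliary rootlet, fell in both, by 0.63 in WT mice and 0.29 in mutants.

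Gas5, a non-coding RNA that hosts small nucleolar RNAs, had the largest difference of these 30 genes and also the largest error. It read 9.91, 9.94 and 10.50 in WT basal, 8.57, 9.97 and 10.06 in WT learning, 8.30, 9.19 and 10.04 in mutant basal and 9.89, 10.05 and 10.47 in mutant learning arrays. In 4 arrays, 3 of mutant basal and 1 of WT learning, it lay between 8.30 and 8.57, and in the other 20 between 9.81 and 10.50. The difference was 1.21 (SE 0.362, interval 0.47 to 1.95), the basal and learning groups overlapped in each genotype, and leaving out any 1 array gave 0.98 to 1.38. Its 3 other probes gave 0.46, 0.34 and 0.67. Of the 30 genes as a whole, the WT basal and learning arrays did not overlap in 14 and the mutant arrays in 10, beside 25.2% and 22.7% of all genes. These 30 were picked by the p of the difference, so their counts are a description.

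**Figure D4:**
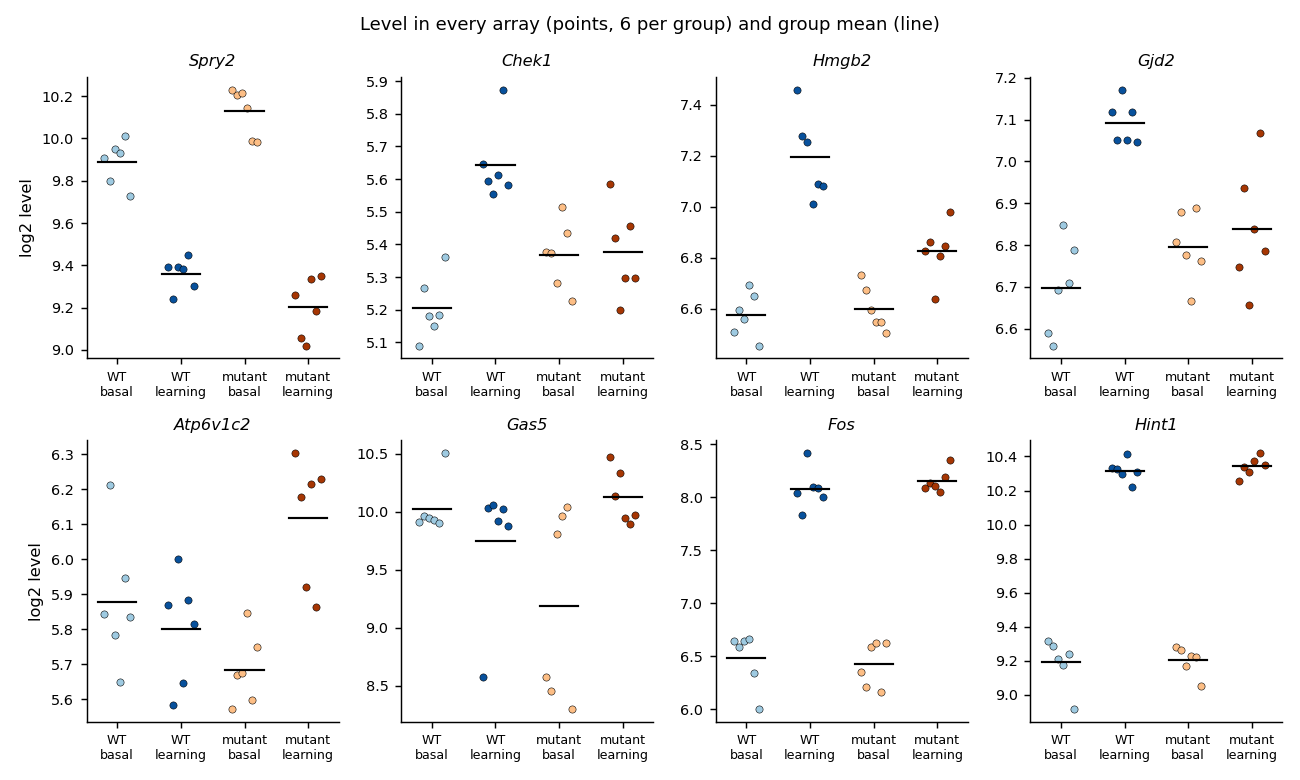
Log2 level in each of the 24 arrays (points, 6 per group) with the group mean (line) for 8 genes; each panel has its own y axis. The learning arrays of Spry2 lie below the basal arrays in both genotypes, those of Chek1, Hmgb2 and Gjd2 lie clear of basal in WT mice only, Gas5 has 4 low arrays, and those of Fos and Hint1 lie clear of basal in both; none of the 8 was called for the difference.

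The start regions of 4 of these genes are shown, each a window of 300 bases across the transcription start, since FoxO proteins and the CREB family bind known short elements there. The sequences are those of RefSeq on GRCm38.p6, in which 44 of the 58 named genes have an entry. Capitals mark the FoxO element GTAAACA, the cAMP response element TGACGTCA and the shorter TGACG that it contains, searched on both strands. Fos is shown for the largest rise (chr12:85473640-85473939, plus strand), Spry2 for the smallest p (chr14:105896770-105897069, minus strand), Gimap3 as the single named gene with a FoxO element (chr6:48770802-48771101, minus strand) and Gas5 for the largest difference of the 30 (chr1:161034916-161035215, plus strand).
Fos: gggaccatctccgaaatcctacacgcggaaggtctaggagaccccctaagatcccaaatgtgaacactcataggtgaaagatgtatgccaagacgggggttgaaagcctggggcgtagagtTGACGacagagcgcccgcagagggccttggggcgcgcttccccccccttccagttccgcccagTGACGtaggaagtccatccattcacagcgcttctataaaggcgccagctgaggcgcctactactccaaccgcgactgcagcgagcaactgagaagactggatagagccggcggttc
Spry2: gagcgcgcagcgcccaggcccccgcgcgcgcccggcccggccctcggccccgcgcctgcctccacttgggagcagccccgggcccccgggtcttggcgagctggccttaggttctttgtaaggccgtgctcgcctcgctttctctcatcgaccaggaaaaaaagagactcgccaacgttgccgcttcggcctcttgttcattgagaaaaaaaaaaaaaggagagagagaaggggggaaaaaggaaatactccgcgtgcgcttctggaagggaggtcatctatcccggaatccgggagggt
Gimap3: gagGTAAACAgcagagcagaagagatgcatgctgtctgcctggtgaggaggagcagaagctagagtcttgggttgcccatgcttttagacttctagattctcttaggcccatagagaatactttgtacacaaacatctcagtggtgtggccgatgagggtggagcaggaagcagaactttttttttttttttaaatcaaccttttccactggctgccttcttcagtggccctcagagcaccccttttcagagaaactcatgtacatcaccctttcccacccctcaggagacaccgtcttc
Gas5: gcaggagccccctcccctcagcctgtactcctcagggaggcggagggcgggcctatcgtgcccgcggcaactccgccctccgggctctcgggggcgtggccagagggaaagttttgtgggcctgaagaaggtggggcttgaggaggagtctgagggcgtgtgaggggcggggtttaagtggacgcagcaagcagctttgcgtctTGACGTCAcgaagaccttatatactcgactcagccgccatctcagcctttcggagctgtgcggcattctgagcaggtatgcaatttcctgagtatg

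The Fos region holds TGACG at 2 places and the Gas5 region holds the whole TGACGTCA, while the Spry2 region holds none of the letters searched. GTAAACA is present in 3.009% of the 19177 promoters of that length. The 553 measured genes with it had a median difference of -0.02, beside -0.01 for the 15061 without, and 3.074% against 2.596% of them had an unadjusted p under 0.05. Gimap3, a GTPase of immune cells, rose by 0.20 in WT mice and was not called in mutants. TGACGTCA is present in 2.367% of promoters, and its 424 measured genes had a median difference of -0.01 and 3.538% with an unadjusted p under 0.05, beside 2.587% of the rest. Of the named genes, Gas5, Dguok and Dnah6 hold it, and their differences ran both ways. TGACG is in 24.973% of promoters. By gene it is in 27.981% of those measured and in 15 of the 44 named genes with an entry. The E-box CACGTG is in 8.244% of promoters, in 9.498% of genes and in 6 of the 44. These are matches of letters and not measured binding.

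The activity programme was then followed by role. Of the 26 transcription factors that neuronal activity induces, 15 were called as rising in WT mice and 14 in mutants, beside 25.1% and 22.6% of all genes. All 14 of the mutants were among the 15, and 3 fell in both. The differences of this list had a median of 0.01 and ran from -0.16 to 0.20, with 15 positive, 11 negative and 0 with an unadjusted p under 0.05. Egr2 rose by 1.07 and 1.03 (interval of the difference -0.33 to 0.26), Nr4a1 by 0.72 and 0.77 (-0.19 to 0.30) and Egr1 by 0.52 and 0.62 (-0.09 to 0.30). Npas4, the neuron-specific factor that shapes inhibitory synapses, rose by 0.56 and 0.58, but its interval was wide, -0.36 to 0.39.

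Of the 36 effectors measured, 21 were called as rising in WT mice and 20 of them also in mutants, beside 25.1% of all genes in WT mice and 19% in both. The list had a median difference of -0.05, with 13 positive and 23 negative. Arc, the capsid-like protein that regulates AMPA receptor traffic, read 8.63, 9.06 and 9.40 in WT basal and 9.72, 9.91 and 10.10 in WT learning arrays, and 8.87, 9.04 and 9.18 against 9.93, 10.00 and 10.12 in mutants. Its rises of 0.87 and 1.00 differed by 0.12 (interval -0.13 to 0.37). Bdnf, the neurotrophin, rose by 0.64 and 0.51 (-0.31 to 0.06) and Homer1 by 0.42 and 0.36 (-0.22 to 0.09). Ifrd1, a transcriptional co-regulator, was the single effector with an unadjusted p under 0.05, beside 2.56% of all genes. It rose by 0.79 and 0.63 and differed by -0.17 (interval -0.31 to -0.02). Rgs4, which shortens G protein signals, rose by 0.59 and 0.41, and its interval of -0.37 to 0.02 included 0.

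Around the MAP kinase and CREB pathways the members did not move as one. Of the 17 MAP kinase feedback genes, 9 differences were positive and 8 negative, with a median of 0.00. Spry2 lay at one end with its -0.40, and Dusp5, a nuclear phosphatase of ERK, at the other with 0.19 (interval 0.01 to 0.37). Dusp5 read 7.57, 7.63 and 7.71 in WT basal and 7.85, 7.94 and 8.02 in WT learning arrays, and 7.22, 7.53 and 7.77 against 7.94, 8.04 and 8.10 in mutants. The nearest relatives of Spry2 differed less: Spry1 by -0.06 (interval -0.24 to 0.12), Spry4 by 0.01 (-0.17 to 0.19) and Spred1 by 0.00 (-0.14 to 0.14). Sik1, a kinase that holds CREB coactivators outside the nucleus, rose by 0.22 in mutants and was not called in WT mice. Its difference of 0.17 had an unadjusted p of 0.0461. The 13 genes of the CREB, CRTC and SIK list had a median of 0.01, as did the 20 circadian clock genes. The 7 genes of the MEF2 and class IIa deacetylase list had a median of -0.06 and 0 with an unadjusted p under 0.05.

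Glucocorticoid-responsive genes are those that the stress hormone corticosterone switches on through its receptors. Of 17 measured, 10 were called as rising in WT mice, 12 in mutants and 9 in both, beside 25.1%, 22.6% and 19% of all genes, and the median difference was -0.01. Tsc22d3, the glucocorticoid-induced leucine zipper, rose by 0.92 and 0.86 (interval of the difference -0.23 to 0.11), and Sgk1, a kinase that phosphorylates FoxO proteins, by 0.88 and 0.73 (-0.35 to 0.05). The mineralocorticoid receptor Nr3c2 fell by 0.35 in both genotypes, with an interval of -0.12 to 0.12.

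FoxO members and their pathway were the nearest to the mutated gene. The Foxo6 probe itself responded by -0.16 in WT mice and -0.06 in mutants, neither called, with a difference of 0.10 (interval -0.16 to 0.36). Foxo1, a relative of Foxo6, read 8.78, 8.88 and 9.00 in WT basal and 8.53, 8.61 and 8.79 in WT learning arrays, and 8.90, 8.99 and 9.10 against 8.37, 8.61 and 8.67 in mutants. It fell in both genotypes, by 0.24 and 0.42, and the mutant groups did not overlap. The difference was -0.18 (interval -0.33 to -0.02, unadjusted p = 0.025, adjusted p = 1 by limma). Foxo3 differed by -0.10 (-0.31 to 0.10) and Foxo4 by 0.04 (-0.14 to 0.22). Among 23 known FoxO target genes, 11 differences were positive and 12 negative, the median was 0.00, and 0 had an unadjusted p under 0.05. Of the 37 insulin, PI3 kinase and mTOR genes 10 were positive and 27 negative, with a median of -0.05. Irs1, the insulin receptor substrate, fell by 0.26 in mutants and by 0.43 in WT mice (difference 0.17, interval 0.03 to 0.31).

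In the lists of the synapse and of excitability most differences were slightly negative, except for monoamine and acetylcholine receptors, with 25 of 41 positive. Over all genes 10858 of 19938 differences were negative. Of 83 potassium channel genes 26 were positive and 57 negative, with a median of -0.03. An unadjusted p under 0.05 was held by 6 of the 83, beside 2.56% of all genes. These were Kcng1 above the WT response and Kcna4, Kcnj10, Kcnh7, Kcnj15 and Kcnc2 below it. Kcnj10, the inward rectifier of astrocytes, read 8.60, 9.04 and 9.14 in WT basal and 8.72, 9.04 and 9.23 in WT learning arrays. In mutants it went from 9.07, 9.32 and 9.62 to 8.47, 8.98 and 9.13. Both pairs of groups overlapped, and its difference was -0.43 (interval -0.73 to -0.12). Kcna4, a channel of A-type current, rose by 0.30 in WT mice and changed by -0.01 in mutants (interval of the difference -0.53 to -0.09).

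Glutamate receptor genes had a median difference of -0.03 over 36 members. Grm3, a metabotropic receptor, read 10.08, 10.19 and 10.31 in WT basal and 10.32, 10.43 and 10.51 in WT learning arrays, and 10.16, 10.26 and 10.44 against 10.24, 10.34 and 10.45 in mutants. It rose by 0.24 in WT mice and was not called in mutants (interval of the difference -0.32 to -0.05). Postsynaptic genes had a median of -0.05 over 41 members and presynaptic genes of -0.02 over 42. Slc17a8, the vesicular glutamate transporter VGLUT3, fell by 0.26 in mutants and was not called in WT mice, with a difference of -0.37 (interval -0.62 to -0.11), although the groups overlapped in both genotypes. GABA and glycine genes had a median of -0.03 over 30 members, sodium and calcium channels of -0.03 over 30, neuropeptides of -0.03 over 29, neurotrophins and their receptors of -0.04 over 12 and monoamine and acetylcholine receptors of 0.03 over 41.

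Next came the lists of the cell's basic machinery, whose counts of genes rising in both genotypes stand beside 19% of all genes. The 81 respiratory chain genes, 52 of them called as rising in both, had a median difference of -0.01 with 38 positive and 43 negative. Sdhc, the membrane anchor of succinate dehydrogenase, was the single one with an unadjusted p under 0.05, beside 2.56% of all genes. Its difference was -0.29 (interval -0.53 to -0.05). The 77 mitochondrial ribosomal genes had a median of 0.00, with 48 rising in both genotypes, and the 60 cytosolic ribosomal genes had 0.02, with 26 rising in both. Proteasome, translation factor, heat shock, lysosome and glycolysis lists had medians of 0.01, -0.01, -0.01, -0.03 and -0.03. In adhesion and guidance lists the medians ran from -0.02 for semaphorins and plexins to 0.01 for integrins and matrix, and Ntn1, which encodes the guidance cue netrin-1, fell by 0.32 in WT mice and was not called in mutants (interval of the difference 0.04 to 0.55). The 74 chromatin enzymes had a median of -0.02, and Kmt5a, a histone methyltransferase, rose by 0.23 in mutants and was not called in WT mice. Of the 74, 0 were called for the difference.

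Over the 47 lists, 1422 of 1474 distinct genes were measured, 13 list medians were above 0 and 34 below, and 38 genes, 2.67%, had an unadjusted p under 0.05. That share is near the 2.56% of all genes. Centring each array on its median left 5 medians above 0, with a changed sign for activity factors, MAP kinase feedback, CREB, clock, proteasome, integrin, CA2 and CA3 and neocortex lists, and a second quantile normalization changed that of mitochondrial ribosomal genes. Of the 38, 10 were above the WT response and 28 below, and 20 lists had 0 such genes.

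**Figure D5:**
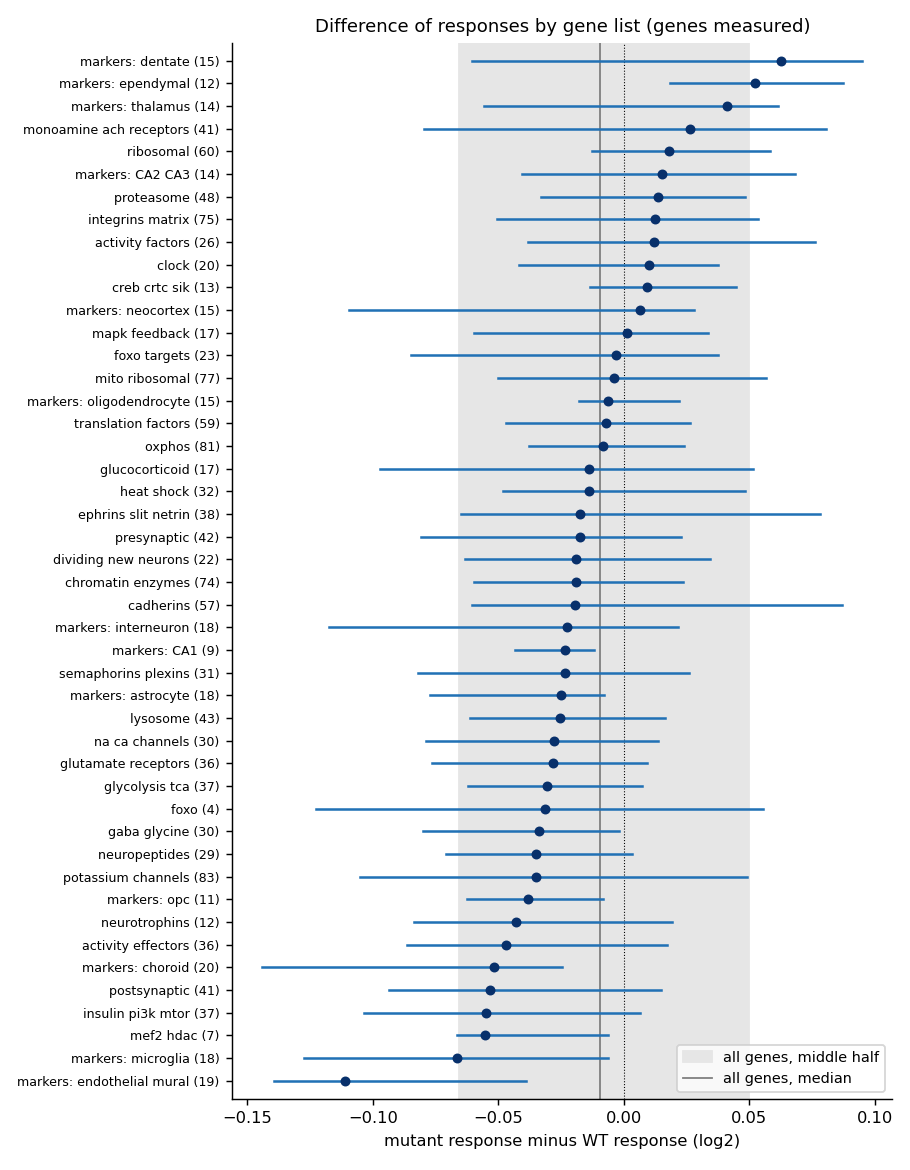
Median (point) and range from the 25th to the 75th percentile (line) of the mutant response minus the WT response, in log2, for each gene list with at least 4 genes measured, with the number measured in brackets. The grey band is the same range over all 19938 genes and the grey line their median of -0.01; the median for endothelial and mural markers, -0.11, lies farthest from it.

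Markers of the cell types that a dissected hippocampus can hold were read the same way. Endothelial and mural markers had the lowest median of the lists with over 2 genes, -0.11 over 19 genes, with 4 positive and 15 negative. The mean level of these markers was 7.91, 7.97 and 8.01 in WT basal, 7.83, 7.87 and 8.02 in WT learning, 7.95, 8.02 and 8.07 in mutant basal and 7.80, 7.87 and 7.91 in mutant learning arrays, so basal and learning arrays overlapped in WT mice and not in mutants. Cldn5, the tight junction protein of brain endothelium, fell by 0.46 in WT mice and 0.65 in mutants (unadjusted p of the difference 0.0469). Microglia markers had a median of -0.07 over 18 genes. Gpr34, a lysophospholipid receptor of microglia, read 5.43, 5.47 and 5.62 in WT basal and 5.87, 6.00 and 6.17 in WT learning arrays, and 5.53, 5.69 and 5.89 against 5.57, 5.93 and 6.09 in mutants. It rose by 0.50 in WT mice and was not called in mutants, where the median went from 5.69 to 5.93. Of the 18 microglia markers 0 were called for the difference.

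Dentate granule cell markers had the highest median, 0.06 over 15 genes, with 0 at an unadjusted p under 0.05. CA1 markers had -0.02, CA2 and CA3 markers 0.02, interneuron markers -0.02, astrocyte markers -0.03, oligodendrocyte markers -0.01 and precursor markers -0.04. Of the neighbouring tissues, neocortex markers had 0.01, with list medians of the response of 0.08 in WT mice and -0.02 in mutants. Below the WT response at an unadjusted p under 0.05 were 3 of these 15 (Rorb, Lamp5 and Etv1), beside 1.66% of all genes. Medians were 0.04 for thalamus markers, 0.05 for ependymal markers and -0.14 for the 2 blood markers measured. Choroid plexus markers had a median of -0.05 over 20 of 23 genes, and 0.20 without the 3 WT basal arrays of low Ttr. Their mean level was 5.91, 6.29 and 6.73 in WT basal, 6.03, 6.13 and 6.23 in WT learning, 6.35, 6.60 and 6.77 in mutant basal and 5.96, 6.31 and 6.68 in mutant learning arrays. With the mean of these markers in each array as a covariate, 0 genes were called and 629 had an unadjusted p under 0.05. The part of the other cell types' markers in the differences was not tested.

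Outside the genes, 13722 probes carry no single gene symbol. Of these 0 were called for the difference of responses, with the smallest adjusted p at 0.853, and 3.18% had an unadjusted p under 0.05. That share split into 276 probes above the WT response and 160 below, the reverse of the 180 and 330 among genes.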

How the data were processed

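Hippocampal total RNA was labelled with biotin and read on whole-transcript arrays, 6 per group. The deposited table holds the authors' log2 values for 35511 probes. They were made with RMA, per the submitters' processing notes; its version, its probe definition and the batches of the arrays are not stated there. Gene names came from the platform annotation: 21789 probes have 1 symbol, 1621 several and 12101 none, and the brightest probe stood for a gene. No value was missing and no filter or rescaling was applied. RMA fits all arrays together and compresses differences of dim probes, so such differences can be understated.

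A model with 4 group means was fitted in limma 3.58.1 (R 4.3.3; lmFit, eBayes with trend, 20 residual and 29 total degrees of freedom), the difference of responses was tested over 19938 genes with Benjamini-Hochberg adjustment, and genes with an adjusted p under 0.05 count as called. The steps were tested on simulated data. Intervals are at 95%. Genes were named by rule: the 15 smallest p in each direction (clone names, receptors of smell and taste, pseudogenes and the like skipped), the 12 largest average rises and falls, up to 2 genes per list of smallest p, and the FoxO genes. Other list members were named after their values were seen, for their known roles. The members and lists were chosen with earlier results of these data known. Alternatives were a replicate block, other scalings, variance settings, probe choices, a choroid marker covariate and leaving out arrays.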

Additional observations from a re-analysis of the deposited data

Results flagged for a closer look

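In the 58 named genes, 232 groups of 6 arrays were checked for a highest or lowest array set far apart, by its gap to the nearest other array as a share of the group's range (Dixon's test at 95%). 17 groups in 16 genes met this, and chance alone gives about 1 in 20 groups. WT basal array 6 held the highest value for Gas5 (10.5) and the lowest for Hint1 (8.92), Mpc1 (8.87) and Shank1 (9.86). WT basal array 1 was lowest for Bex4 (5.86) and array 4 highest for Slitrk1 (9.92). WT learning array 5 was highest for Chek1 (5.87) and Mrpl20 (8.85) and lowest for Imp3 (9.08), and WT learning array 1 was lowest for Gas5 (8.57). In mutant basal arrays, Dtx3 was highest in array 2 (10.1) and Foxo6 in array 6 (6.59). In mutant learning arrays, Ptpn20 was highest (4.97) and Ss18 lowest (7.53) in array 2, Zadh2 (8.22) and Foxo1 (8.37) were lowest in array 3, and Trim8 was highest in array 5 (8.28). All differences given for these genes include these arrays.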

How the results depend on the processing

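No gene was called under any of 37 alternatives, 24 of which left out 1 array; the lowest adjusted p of a named gene in any of them was 0.383. The count of genes with an unadjusted p under 0.05 (510) ran from 396 to 753 when 1 array was left out. It was 220 over genes brighter than the median gene, where fewer genes are tested, and 996 over every probe of the table, where more are, split into 490 above and 506 below the WT response. Without the 3 WT basal arrays of low Ttr, a choice made after seeing the data, it was 919. The cause of that was not tested. With arrays centred on their medians, which shifts every gene alike, the median difference of called fallers went from -0.0139 to -0.0318 and that of called risers from -0.0184 to -0.0362, -0.0179 in each. The replicate numbers of the labels did not pair the arrays: deviations of same-numbered arrays correlated at a mean of 0.006 against -0.001 for other pairs, 7 of 36 pairs were over 0.1, and 3 arrays matched their own number best. With a replicate block 0 genes were called and 541 had an unadjusted p under 0.05, and the block changed no other call. The 30 genes of smallest p kept their sign in all 1030 values computed and stayed under an unadjusted p of 0.05 in all 24 fits without 1 array. They were picked by the p of this same difference, and these 24 fits reuse all but 1 of the same arrays. Such a result was therefore close to fixed in advance and adds no evidence for a difference. Of 977 values for responders and FoxO genes 2 moved by over 1 SD (Imp3 and Ttr, both without those 3 WT basal arrays), and of 1644 list medians 11 did. The number of arrays limits the precision, and the standard errors of Gas5, Mrpl20 and Ttr were far above the median of 0.102.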
